A study of Mus musculus with 4 samples.

Results

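The 7 genes described here encode proteins that adipocytes release or place at the vessel wall, and they were followed through the layers of mouse dorsal skin. They were *Adipoq*, *Cfd*, *Retn*, *Lep*, *Rbp4*, *Saa3* and *Lpl*, picked by symbol, and all 7 were among the 32286 features of the files. Spatial transcriptomes (Visium) had been made from 4 slices of skin, and each slice held sections of the same 3 mice. The study left a section with distorted structure out of its own analysis, and the sources used here do not say which section or slice this was. All 4 slices were used here, and each was also left out in turn. The mice carried both *R26-tdTomato* and *Krox20-CreERT*, so Cre came from the *Krox20* locus. They had received 4-hydroxytamoxifen at P2, and the skin was taken at P38. All slices shared this genotype, treatment and age, so every comparison below is between places within the tissue, and the 4 slices are technical replicates of the same animals. P-values therefore measure the spread between slices and not between mice. A spot is a small patch of tissue that may hold several cells of different kinds, so fewer adipocytes and less RNA per adipocyte cannot be told apart.

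Dermal white adipose tissue lies under the reticular dermis and above the skeletal muscle of the panniculus, and growing hair follicles push their bulbs down into it. Its adipocytes store triglyceride and secrete proteins. Adiponectin (*Adipoq*), leptin (*Lep*) and resistin (*Retn*) are hormones. Complement factor D, also called adipsin (*Cfd*), is the serine protease that starts the alternative complement pathway. Retinol-binding protein 4 (*Rbp4*) carries vitamin A in blood. Serum amyloid A3 (*Saa3*) is an acute-phase protein. Lipoprotein lipase (*Lpl*) splits the triglyceride of circulating lipoproteins, and muscle makes it as well as fat.

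In the GENCODE M21 annotation of GRCm38 the members are protein-coding genes. *Lep* spans chr6:29060220-29073877 on the plus strand, *Saa3* chr7:46711998-46715700 on the minus strand, *Retn* chr8:3655770-3660110 on the plus strand and *Lpl* chr8:68880491-68907448 on the plus strand. *Cfd* spans chr10:79890853-79892655 and *Adipoq* chr16:23146536-23158028, both on the plus strand, and *Rbp4* spans chr19:38116629-38125281 on the minus strand. RefSeq (GRCm38.p6) gave promoters for 6 of the 7, the exception being *Lpl*, with 7 starts since *Rbp4* has a pair. The stretch that begins 100 bases before the start is printed for 4 members, chosen because *Adipoq*, *Cfd* and *Lep* were concentrated in fat in these data whereas *Saa3* was not. Capitals mark TTGCNNAA, a core bound by C/EBP factors, and CCAAT, on either strand. The windows are chr16:23146436-23146535 (plus) for *Adipoq*, chr10:79890753-79890852 (plus) for *Cfd*, chr6:29060121-29060219 (plus) for *Lep* and chr7:46715701-46715776 (minus) for *Saa3*, and those of *Lep* and *Saa3* stop where the gene begins in GENCODE.
Adipoq: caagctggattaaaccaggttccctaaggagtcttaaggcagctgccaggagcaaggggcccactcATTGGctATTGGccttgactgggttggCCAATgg
Cfd: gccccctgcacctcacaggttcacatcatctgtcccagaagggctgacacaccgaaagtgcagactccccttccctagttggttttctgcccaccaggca
Lep: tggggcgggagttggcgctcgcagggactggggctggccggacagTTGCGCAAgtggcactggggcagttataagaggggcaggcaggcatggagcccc
Saa3: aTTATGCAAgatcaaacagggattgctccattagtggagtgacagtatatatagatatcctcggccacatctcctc

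Within the 250 bases before a start, TTGCNNAA occurred in *Lep*, *Saa3* and 1 start of *Rbp4*, that is at 3 of 7 member starts, and in 9.56% of the 32851 promoters of the table. CCAAT occurred in *Adipoq* (3 matches) and the other start of *Rbp4*, and in 33.8% of all promoters. Of the other motifs among the 9 searched on both strands, TATAAA (12.4% of promoters) matched *Rbp4*, GGGCGG (32.7%) matched *Lep* and *Rbp4*, and an NF-kB site (7.25%) matched *Retn*. AGGTCA (14%), the DR1 repeat in a strict form (0.0335%) and a relaxed form (0.338%), and CACGTG (6.02%) matched none. AGGTCA lies within the strict DR1, so their matches overlap. These are matches of letters in short windows.

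Slices held between 19393026 and 26910422 UMIs over 6420 spots, of which 6411 had at least 250 detected genes and were kept. The median spot held between 11662 and 14627 UMIs. Spots were sorted by marker lists that contain no member. A spot was called adipose-rich when *Plin1*, *Plin4*, *Cidec*, *Pparg*, *Lipe*, *Adrb3*, *Aqp7*, *Acvr1c* and *Thrsp* gave it the highest of 7 list scores and that score lay at least 1.5 SDs above the mean of its slice. This gave 449 adipose-rich spots (109, 120, 114 and 106 in slices 1 to 4), 493 spots rich in hair bulb (matrix and early shaft) genes and 808 rich in skeletal muscle genes. All 9 adipose markers were higher in adipose-rich spots than in both other classes, by 2.20 to 8.16 times the higher of the other classes. The adipose list summed to 524 ± 62.2 CPM (a gene's UMIs scaled to the same total in every sum) in adipose-rich spots (SD, n = 4 slices), 55.2 ± 11.7 in bulb-rich spots and 120.4 ± 10.8 in muscle-rich spots. Adipose-rich spots were mixed: their muscle list stood at 4627 CPM, against 35735 in muscle-rich spots, their outer root sheath list at 7950, against 22813 in outer root sheath-rich spots, and their macrophage list at 232. In the map of slice 2, adipose-rich spots were scattered between the epidermis-rich and muscle-rich edges, and most bulb-rich spots lay close to the muscle-rich edge.

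**Figure D1:**
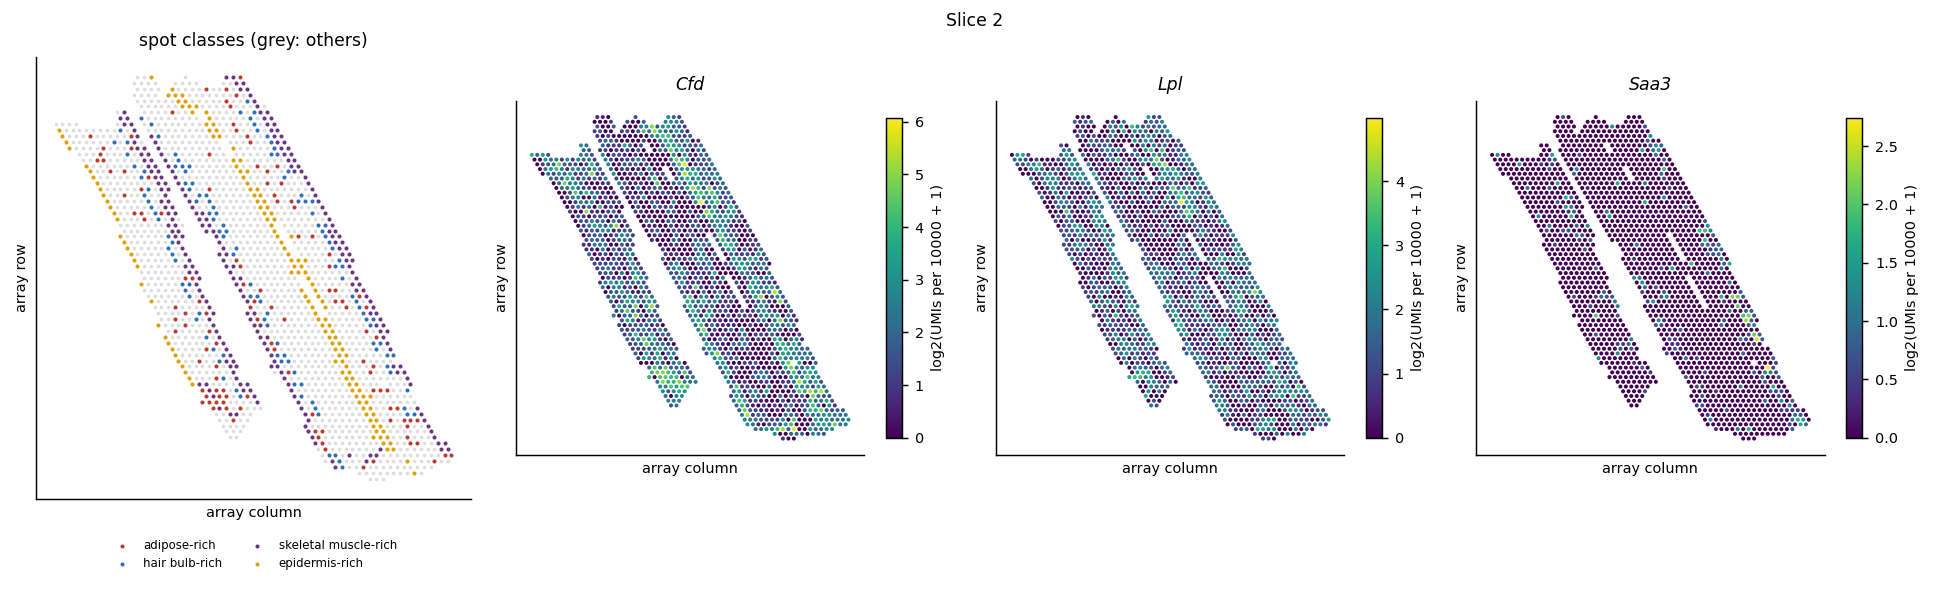
Maps of slice 2 by array position. The first panel colours the spots by marker class (adipose-rich red, hair bulb-rich blue, skeletal muscle-rich purple, epidermis-rich yellow, all others grey), and the other panels colour each spot by *Cfd*, *Lpl* or *Saa3* as log2(UMIs per 10000 + 1), each on its own scale. *Cfd* and *Lpl* are found across much of the tissue, while most spots hold no *Saa3* and those that do lie mainly near the muscle-rich edge.

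The hormones were concentrated in adipose-rich spots. *Adipoq* stood at 170.4, 171, 165 and 234 CPM in the adipose-rich spots of slices 1 to 4, and between 17.5 and 35.9 in bulb-rich and between 41.4 and 44.4 in muscle-rich spots. The ranges did not overlap. *Retn* stood at 102, 123, 86.7 and 113 CPM in adipose-rich spots, at 12.2 ± 2.9 in bulb-rich and at 24.5 ± 4.4 in muscle-rich spots. *Lep* was sparse, with 415 UMIs in all kept spots. It stood at 19.7, 22.7, 13.8 and 19.99 CPM in adipose-rich spots, at 1.72 ± 0.39 in bulb-rich and at 3.16 ± 1.58 in muscle-rich spots. Every slice had more of each hormone in adipose-rich spots than in either other class.

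The secreted proteins *Cfd* and *Rbp4* followed the hormones. *Cfd* stood at 1474, 1741, 1672 and 1784 CPM in adipose-rich spots, at 209.8 ± 36.6 in bulb-rich and at 320.4 ± 34.4 in muscle-rich spots. *Rbp4* stood at 18.8, 23.3, 24.97 and 32.8 CPM in adipose-rich spots, at 3.01 ± 0.73 in bulb-rich and at 5.94 ± 1.22 in muscle-rich spots. Both sets of ranges were apart. *Lpl* was shared with muscle and other classes, at 242 ± 103 CPM in outer root sheath-rich, 188 ± 42 in fibroblast-rich and 165 ± 31 in sebaceous gland-rich spots. It stood at 398, 439, 476 and 575 CPM in adipose-rich spots and between 240 and 301 in muscle-rich spots, but only between 60.6 and 108 in bulb-rich spots. *Saa3* went the other way: it stood at 20.2, 23.8, 15.1 and 12.8 CPM in adipose-rich spots, at 41.2, 27.1, 30.6 and 32.7 in bulb-rich spots and at 20.7, 22.4, 18.2 and 27.1 in muscle-rich spots. Its bulb-rich values lay above all its adipose-rich values, while its adipose-rich and muscle-rich values overlapped.

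**Figure D2:**
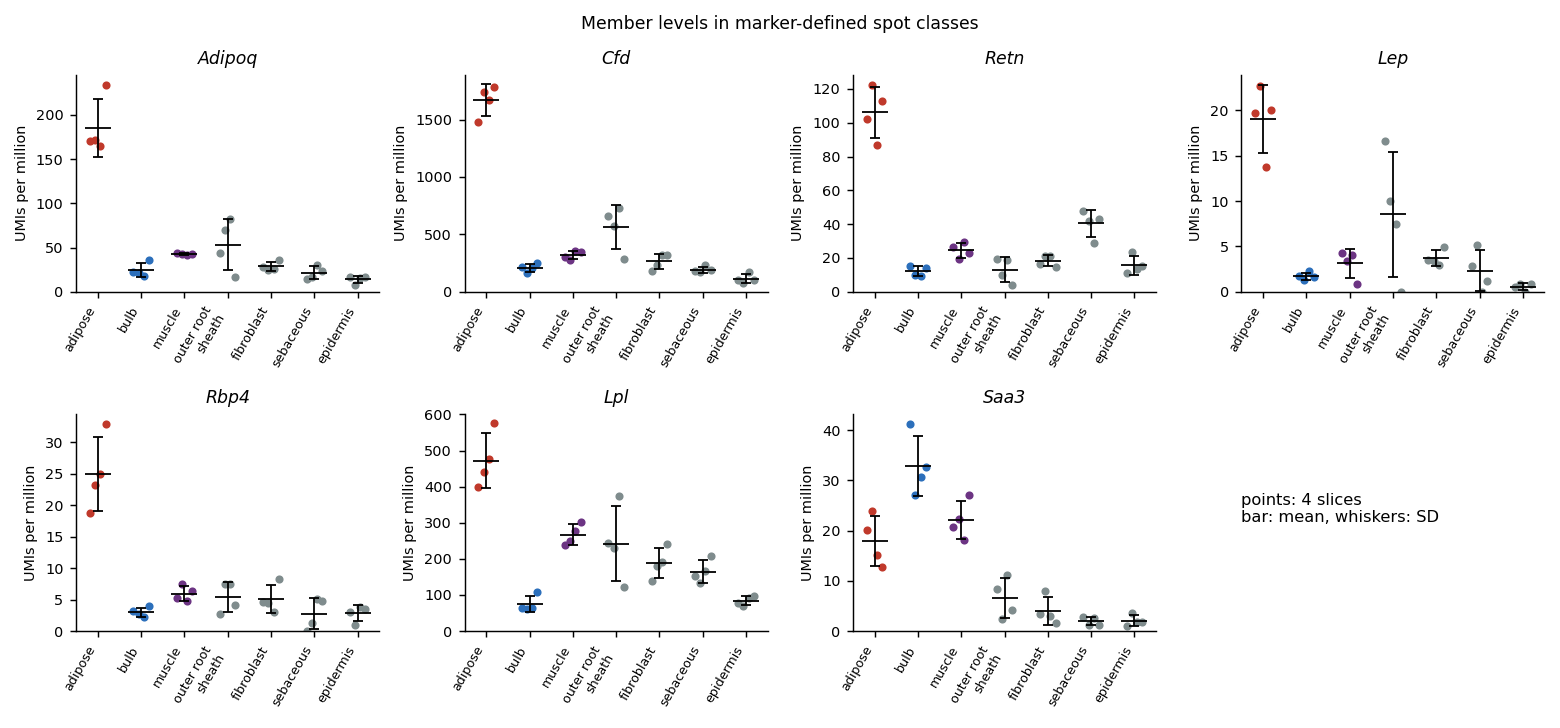
CPM of each member (y axis, one scale per gene) in 7 marker-defined spot classes (x axis). Points are the 4 slices, horizontal bars the means and whiskers the SD. Adipose-rich spots (red) are highest for 6 members, and bulb-rich spots (blue) for *Saa3*.

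Counts were summed per slice and class and fitted with edgeR (quasi-likelihood, slice as a block, Benjamini-Hochberg over 11585 genes). Against bulb-rich spots, 6 of 7 members were called higher in adipose-rich spots, where 28.1% of all genes were, and *Saa3* was called lower, as were 24.5% of all genes. On the log2 scale the difference was 2.97 ± 0.10 (SE) for *Adipoq*, 3.06 ± 0.07 for *Cfd*, 3.14 ± 0.14 for *Retn*, 3.52 ± 0.30 for *Lep*, 3.05 ± 0.23 for *Rbp4* and 2.73 ± 0.08 for *Lpl*. The largest adjusted p among them was 1.7e-12 (*Lep*). *Saa3* was lower in adipose-rich spots by a log2 fold change of -0.79 ± 0.17 (edgeR, adjusted p = 0.00012), and it was lower in 4 of 4 slices. The median log2 fold change was 3.05 over the members and -0.02 over all genes.

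Against muscle-rich spots, 6 of 7 members were called higher in adipose-rich spots, where 15% of all genes were. The log2 fold change was 1.95 ± 0.09 for *Adipoq*, 2.25 ± 0.07 for *Cfd*, 1.97 ± 0.12 for *Retn*, 2.39 ± 0.26 for *Lep*, 1.88 ± 0.20 for *Rbp4* and 0.67 ± 0.07 for *Lpl*. *Lpl*, whose enzyme muscle also makes, was 1.77 times as high in adipose-rich as in muscle-rich spots by the class means and 6.36 times as high as in bulb-rich spots. *Saa3* differed from muscle-rich spots by -0.39 ± 0.18 on the log2 scale (edgeR, adjusted p = 0.089) and was lower in 3 of 4 slices. Its adjusted p ran from 0.0501 to 0.588 over 15 other settings, none of which called it. Between the other 2 classes, 6 members were called lower in bulb-rich than in muscle-rich spots, where 29.8% of all genes were, from -0.81 ± 0.07 (*Cfd*) to -2.06 ± 0.08 (*Lpl*). *Saa3* was higher in bulb-rich spots by 0.40 ± 0.14 (edgeR, adjusted p = 0.013), as were 26.2% of all genes. This call for *Saa3* was lost in 4 of 15 settings of the edgeR or DESeq2 fits, among them without slice 1 (edgeR adjusted p = 0.27) and without slice 3 (adjusted p = 0.060), and that for *Lep* in 6 of 14, among them without slices 1, 2 or 3 (adjusted p = 0.098, 0.082 and 0.051). Muscle markers moved with these results, since the muscle list stood at 4627 CPM in adipose-rich and 1474 in bulb-rich spots. Their part in the differences was not tested.

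**Figure D3:**
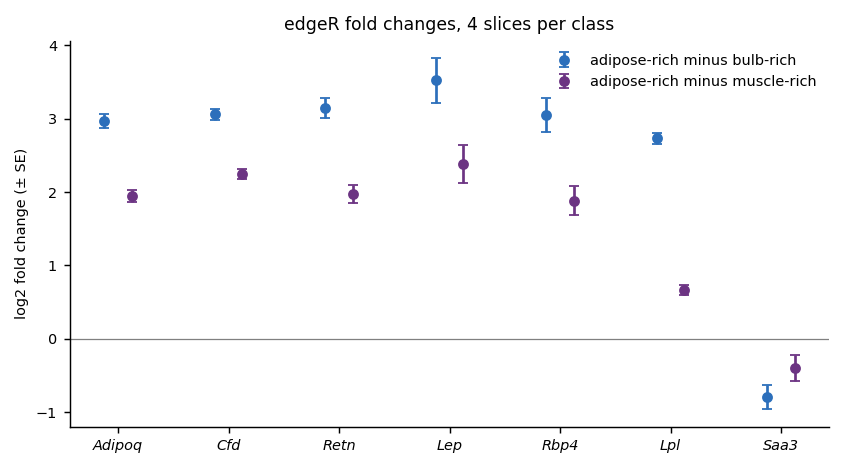
log2 fold change with its SE (y axis) of each member (x axis) in adipose-rich spots, against bulb-rich spots (blue) and against muscle-rich spots (purple), from the edgeR fit on 4 slices per class. 6 members lie above 0 in both comparisons, with *Lpl* near 0.67 against muscle, and *Saa3* lies below 0 in both.

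The order of the remaining classes differed between members. For *Adipoq* and *Cfd* the outer root sheath-rich spots came after the adipose-rich ones, at 53.3 ± 29.0 and 562 ± 193 CPM. These values varied between slices, from 16.8 to 82.0 for *Adipoq*, and overlapped those of muscle-rich spots. *Lep* was also next highest there, at 8.52 ± 6.87 from 12 UMIs in all, with a slice range that overlapped the adipose-rich one. This class was small, with 124 spots, and 58 of them lay next to an adipose-rich spot. Of the 493 bulb-rich spots 168 did so, and of the 808 muscle-rich spots 247. The part of this nearness in the outer root sheath values was not tested. For *Retn* the sebaceous gland-rich spots came after the adipose-rich ones, at 40.4 ± 8.0 CPM, and their range overlapped that of muscle-rich spots but not that of adipose-rich spots. Epidermis-rich spots were at the low end for some members, at 14.2 ± 4.1 for *Adipoq*, 0.58 ± 0.43 for *Lep* and 2.09 ± 1.11 for *Saa3*. The means of *Retn* and *Lpl* were instead lowest in bulb-rich spots (12.2 and 74.2), with ranges that overlapped those of epidermis-rich spots (means 15.8 and 83.6). *Saa3* was also low in the sebaceous gland-rich (1.98 ± 0.85), fibroblast-rich (4.01 ± 2.70) and outer root sheath-rich (6.55 ± 3.94) classes, and stood at 16.4 ± 1.9 in the 3358 spots of no class.

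Adipose-rich spots made up 449 of 6411 spots and held 7.34% of all UMIs (mean of 4 slices). They held 31.1 ± 2.1% of *Adipoq* UMIs, 31.4 ± 2.8% of *Cfd*, 29.8 ± 4.9% of *Retn*, 31.6 ± 6.6% of *Lep*, 30.1 ± 2.5% of *Rbp4* and 20.4 ± 1.2% of *Lpl* UMIs. For *Saa3* the share was 7.66 ± 2.43%, close to that of all UMIs. The shares depended on how the class was chosen. With the second part of the marker list (472 spots, 6.61% of all UMIs) *Adipoq* was at 19.2% and *Cfd* at 19.6%. *Retn* was then at 18.8%, *Lep* at 20.6%, *Rbp4* at 17.8%, *Lpl* at 14.96% and *Saa3* at 6.47%. The *Adipoq* share was 28.4% with the first part, 23.02% with a stricter score threshold and 35.8% with a looser one. Most UMIs of every member thus lay in spots outside the class, and 81 spots lay within 0.25 SDs below the score threshold, as many as lay within 0.25 SDs above it.

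At least 1 UMI of *Cfd* was found in 99.1% of adipose-rich spots, of *Lpl* in 95.1%, of *Adipoq* in 77.4%, of *Retn* in 52.8%, of *Rbp4* in 27.7%, of *Lep* in 22.5% and of *Saa3* in 15.5% (means of 4 slices, median depth 13584 UMIs). In epidermis-rich spots the shares were 56.3% for *Cfd*, 48.8% for *Lpl*, 11.1% for *Adipoq*, 11.4% for *Retn*, 2.48% for *Rbp4*, 0.52% for *Lep* and 1.77% for *Saa3*, at a median depth of 8552 UMIs. These spots were not epidermis alone: their dermal fibroblast list stood at 25893 CPM, against 52840 in fibroblast-rich spots. With every spot thinned to 5500 UMIs, the pairs of shares in adipose-rich and epidermis-rich spots were 98.1% and 40.0% for *Cfd*, 53.7% and 6.62% for *Adipoq*, and 6.13% and 0.94% for *Saa3*. For thinning, 27 adipose-rich and 96 epidermis-rich spots were too shallow and were left out. The share of *Saa3* was highest in bulb-rich spots, at 27.5% unthinned (median depth 21528 UMIs) and 12.2% thinned. The median adipose-rich spot held UMIs of 4 of the 7 members, and 33.0% held 5 or more, against 5.88% of bulb-rich, 7.43% of muscle-rich and 0% of the 570 epidermis-rich spots, where a count of 0 allows a share of up to 0.526%.

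Away from adipose-rich spots the levels of 6 members dropped within 1 step of the spot grid. Step 0 is the adipose-rich class itself and later steps hold none of its spots, so the drop at step 1 repeats the contrast between classes. Spots just under the score threshold count as step 1 or more. At step 1, which is the ring of spots next to an adipose-rich spot, *Adipoq* was at 24.4 ± 3.7% of its level in the adipose-rich spots of the same slice, *Cfd* at 24.9 ± 4.4%, *Retn* at 24.9 ± 7.7%, *Lep* at 25.3 ± 6.9% and *Rbp4* at 24.98 ± 5.62%. *Lpl* was at 36.9 ± 3.2%. The adipose marker list, which chose the spots, was at 20.6 ± 1.0%. From step 1 on the fall was gradual: at 4 or more steps *Adipoq* was at 10.98%, *Cfd* at 10.8%, *Retn* at 12.8%, *Lep* at 7.25%, *Rbp4* at 13.4% and *Lpl* at 26.3%. *Saa3* had no such drop and stood at 119 ± 30% at step 1, 118 ± 36% at step 2, 87.0 ± 23.4% at step 3 and 73.1 ± 35.8% at 4 or more steps.

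In the edgeR fit over steps (13035 genes), 6 members were called higher at step 0 than at step 1, where 3.26% of all genes were. At step 0 against step 2 and against step 3, 6 members were called higher too, where 4.28% and 3.98% of all genes were. These comparisons share the sums of step 0, which is the adipose-rich class. The log2 fold change from step 1 to step 0 was 2.03 ± 0.07 for *Adipoq* and 1.43 ± 0.05 for *Lpl*. *Saa3* differed by -0.17 ± 0.17 (edgeR, adjusted p = 0.70). Against 4 or more steps, all 7 members were called higher at step 0, where 3.6% of all genes were, with *Saa3* at 0.66 ± 0.20 (edgeR, adjusted p = 0.027). That call for *Saa3* was lost in 5 of 12 settings, with edgeR adjusted p = 0.17 without slice 1 and 0.50 without slice 2. *Saa3* was higher at step 1 than at 4 or more steps by 0.83 ± 0.14 (edgeR, adjusted p = 6.7e-05), as were the other 6 members and 8.19% of all genes. The call for *Rbp4* in that comparison was lost without slice 1 (edgeR adjusted p = 0.052) and without slice 2 (adjusted p = 0.14). With adipose-rich spots chosen by the second part of the marker list, the calls at step 1 against 4 or more steps were lost for *Saa3* (0.18, edgeR adjusted p = 0.80), *Retn* (0.60, adjusted p = 0.17), *Lep* (0.90, adjusted p = 0.13) and *Rbp4* (0.72, adjusted p = 0.074). Other lists moved with the steps too. The bulb list stood at 1210 CPM at step 1 and 962 at 4 or more steps, and the dermal fibroblast list at 5619 and 12134. Epidermis-rich spots, where *Saa3* was low as in fibroblast-rich spots, numbered 15 at step 1 and 180 at 4 or more steps. The part of these in the *Saa3* difference was not tested.

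**Figure D4:**
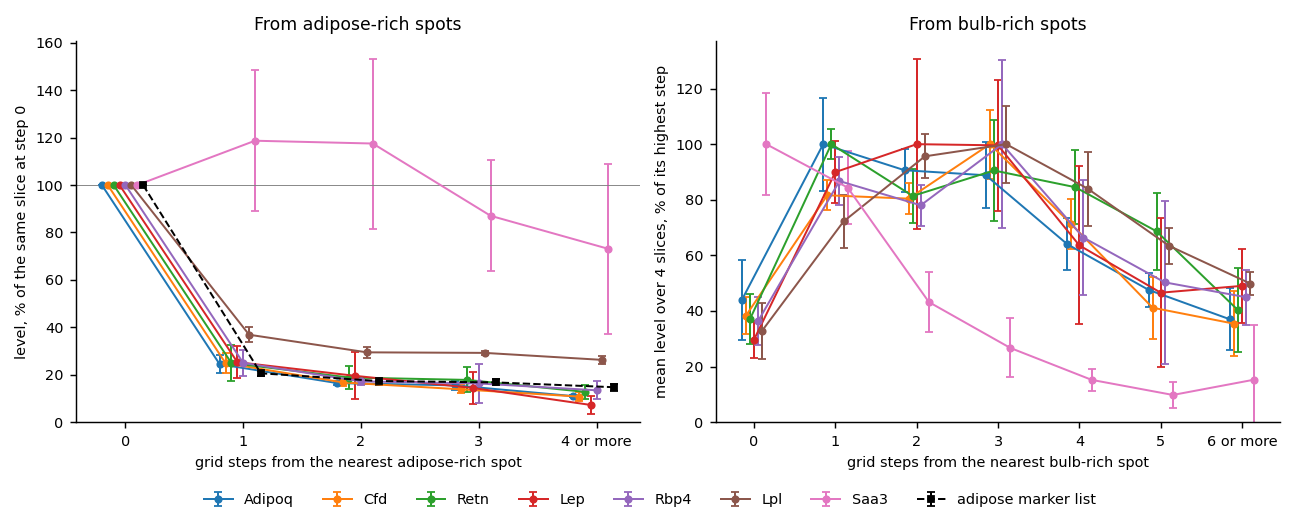
Member levels by grid distance. The left panel gives each member and the adipose marker list as a percentage of the same slice's adipose-rich spots (y axis) against steps from the nearest adipose-rich spot (x axis). The right panel gives each member's mean level as a percentage of its highest step against steps from the nearest bulb-rich spot. Points are means and whiskers the SD over 4 slices. On the left 6 members drop to between 24.4% and 36.9% at step 1 while *Saa3* stays near 119%, and on the right *Saa3* falls from step 0 while the others rise first.

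Steps were also counted from bulb-rich spots, a view added after the values had been seen, with no test. *Saa3* was at 32.9 ± 6.0 CPM in bulb-rich spots, 27.8 ± 4.3 at step 1, 14.2 ± 3.6 at step 2, 8.79 ± 3.49 at step 3 and 3.22 ± 1.58 at step 5. At 6 or more steps it was at 5.03 ± 6.47, from 0.44 to 14.6 over the slices. *Cfd* ran the opposite way at first, from 209.8 ± 36.6 in bulb-rich spots to 447 ± 30 at step 1 and 548 ± 68 at step 3, before it came down to 194 ± 64 at 6 or more steps. Counted from muscle-rich spots, *Saa3* was highest in the ring next to muscle, at 41.9 ± 10.1 CPM against 22.1 ± 3.7 in the muscle-rich spots themselves. This was not particular to *Saa3*, since *Adipoq* (72.2 against 42.8), *Cfd* (553 against 320.4), *Retn* (45.8 against 24.5), *Lep* and *Rbp4* were also highest in that ring. *Lpl* was lower in that ring (191.7 ± 26.5) than in muscle-rich spots (267 ± 28). Counted from epidermis-rich spots, *Saa3* climbed from 2.09 ± 1.11 to 30.1 ± 5.3 at step 5 and was at 25.8 ± 4.4 at 6 or more steps.

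Bulb-rich spots held different amounts of *Saa3*. When they were split within each slice at the median of *Mki67* and *Top2a*, genes of dividing cells, *Saa3* stood at 54.2 ± 10.4 CPM above the median (47.8 to 69.6, 247 spots, 320 UMIs) and at 9.85 ± 4.05 below it (5.41 to 14.99, 246 spots, 55 UMIs). Split at the median of *Krt35*, a keratin of the hair shaft cuticle and cortex, it stood at 55.4 ± 9.5 below and 10.9 ± 4.9 above the median. The slice ranges did not overlap in either split. A split by *Hoxc13*, *Dlx3* and *Msx2* gave *Saa3* at 40.5 ± 7.2 below and 24.6 ± 7.8 above the median. All the genes used for these splits belong to the marker list that chose the bulb-rich spots. The splits are therefore not independent of the class or of each other. They were chosen after the values of *Saa3* had been seen and are given without a test. Over all kept spots *Saa3* was sparse: 12.4% of spots held a UMI, the 10% of spots with most *Saa3* held 90.6% of its UMIs, and the highest spot held 26. Such a share depends on how many spots hold a UMI at all. It was 100% for *Lep* (found in 5.57% of spots) and *Rbp4* (7.39%), and 70.7% for *Retn* (21.0%). *Lpl*, found in 71.4% of spots, had 39.9% of its UMIs in its top 10% of spots. *Saa1* and *Saa2*, near relatives of *Saa3* whose reads may be hard to separate from it, stayed at or below 0.49 CPM in each class.

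The adjoining tissue was compared by splitting the bulb-rich and muscle-rich spots into those within 2 steps of an adipose-rich spot (adjoining) and those farther (away). Among 323 adjoining and 170 away bulb-rich spots, no member of the 5 that passed the low-count filter was called by edgeR (9175 genes, 0.109% called in either direction), 1 of them had an unadjusted p under 0.05, and DESeq2 called none. *Cfd* was at 210.3 ± 41.1 CPM in adjoining and 210.6 ± 62.1 in away spots, and *Lpl* at 74.0 ± 22.3 and 75.3 ± 29.4. *Retn* was at 13.1, 7.18, 8.68 and 9.68 CPM in adjoining spots of slices 1 to 4 and at 20.4, 16.7, 11.03 and 24.4 in away spots, lower in adjoining spots in each slice, with a log2 fold change of -0.91 ± 0.26 (edgeR, adjusted p = 0.33). *Saa3* was at 35.4 ± 3.6 in adjoining and 27.7 ± 21.2 in away spots. *Lep* and *Rbp4* did not pass the filter, and stood at 1.94 ± 0.36 and 3.61 ± 1.496 in adjoining and at 1.21 ± 1.14 and 1.66 ± 1.38 in away spots. The adipose marker list was itself no higher in adjoining bulb-rich spots, at 53.7 ± 13.3 against 58.7 ± 11.01. The muscle list was at 1247 ± 489 CPM in adjoining and 1995 ± 216 in away bulb-rich spots, lower near fat in 3 of 4 slices, and its part in the *Retn* values was not tested.

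Muscle-rich spots near fat held more of some members. Among 444 adjoining and 364 away spots (9851 genes fitted, 0.193% called higher), edgeR called *Cfd*, *Retn* and *Lpl* higher in adjoining spots. *Cfd* was at 316, 338, 430 and 416 CPM in adjoining spots of slices 1 to 4 and at 281, 203, 248 and 268 in away spots. Each slice was higher near fat, and the log2 fold change was 0.58 ± 0.07 (edgeR, adjusted p = 1.4e-07). *Retn* was at 29.1, 24.9, 36.5 and 29.2 in adjoining and 22.1, 11.5, 19.3 and 15.9 in away spots, without overlap (0.81 ± 0.18 on the log2 scale, edgeR, adjusted p = 0.027). *Lpl* was at 288 ± 29 and 238 ± 32 (0.28 ± 0.06 on the log2 scale, edgeR, adjusted p = 0.039). *Adipoq* was at 48.9 ± 7.3 and 33.9 ± 10.5 (0.59 ± 0.15, adjusted p = 0.12 by edgeR), higher near fat in 3 of 4 slices, and *Saa3* at 22.6 ± 1.8 and 21.0 ± 6.4. *Lep* and *Rbp4* did not pass the filter.

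These muscle calls depended on settings that were added after the values had been seen. DESeq2 called *Cfd* alone, the edgeR fit without the slice block called none of the 3 (adjusted p = 0.12 for *Cfd* and 0.41 for *Retn*), nor did the fit with adipose-rich spots chosen by the second part of the marker list (adjusted p = 0.93 for *Cfd*), and without slice 2 or without slice 3 only *Cfd* was called. *Lpl* was also lost without slice 1 (adjusted p = 0.17), and *Adipoq* was called without slice 4 (0.84, adjusted p = 7.2e-05 by edgeR). The adipose marker list stood at 136 ± 13 CPM in adjoining and 99.0 ± 11.5 in away muscle-rich spots, and the macrophage list at 231 ± 50 and 180.1 ± 10.7, and their part in the differences was not tested. The change near fat was compared between the muscle-rich and bulb-rich spots in a fit also chosen after the values had been seen (10562 genes, 0.00947% called). It differed for *Retn*, by 1.70 ± 0.32 on the log2 scale (edgeR, adjusted p = 0.040), but not past the threshold for *Cfd* (adjusted p = 0.21). The call for *Retn* was lost without slice 2 (1.52, edgeR adjusted p = 0.61), without slice 4 (1.52, adjusted p = 0.20) and with a stricter score threshold (0.58, adjusted p = 0.96). It was also lost with DESeq2 (1.75, DESeq2 adjusted p = 0.098) and without the slice block (1.71, edgeR adjusted p = 0.25). Neither the first part of the marker list (1.21, edgeR adjusted p = 0.22) nor the second (0.77, adjusted p = 0.95) gave the call.

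**Figure D5:**
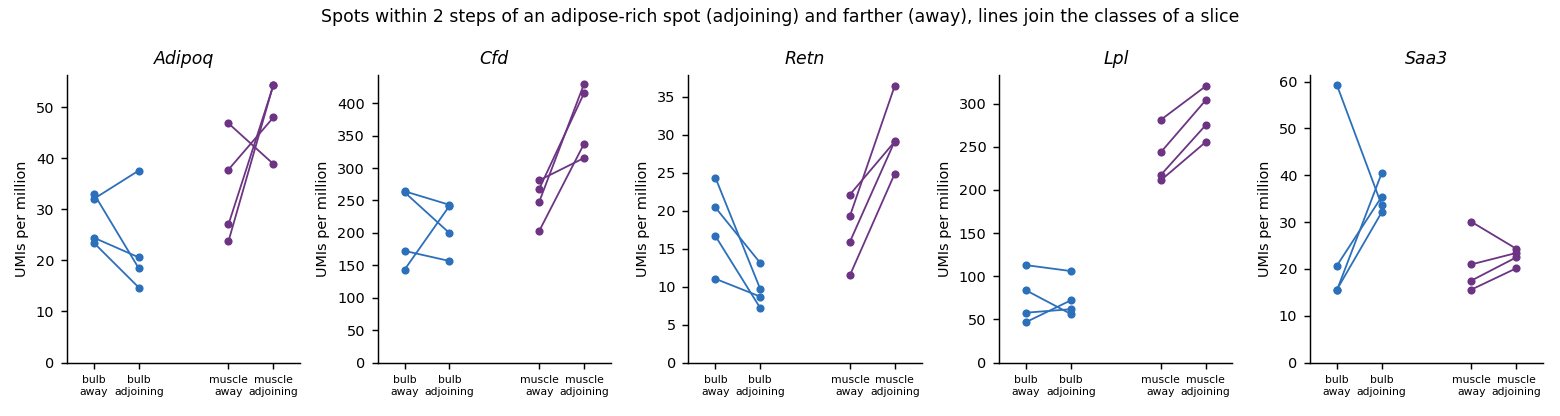
CPM (y axis) of 5 members in bulb-rich (blue) and muscle-rich (purple) spots away from and adjoining adipose-rich spots (x axis). Each point is a slice and lines join the classes of a slice. *Retn* is lower near fat in bulb-rich and higher near fat in muscle-rich spots in each slice, and *Cfd* and *Lpl* are higher near fat in muscle-rich spots in each slice.

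Within the adipose-rich class, mean levels of 6 members were higher where the adipose score, which does not contain them, was higher. In spots with a score above the median of their slice's class, *Adipoq* stood at 238 ± 29 against 136 ± 41 CPM in those below it, *Cfd* at 2107 ± 190 against 1262 ± 114, *Retn* at 136 ± 32 against 78.4 ± 10.3, *Rbp4* at 31.5 ± 5.4 against 18.9 ± 7.2 and *Lpl* at 586 ± 118 against 368 ± 56. *Lep* was at 22.6 ± 6.3 against 15.8 ± 1.8. *Saa3* was at 18.7 ± 6.3 above and 17.4 ± 6.1 below the median. The slice ranges above and below the median were apart for *Adipoq*, *Cfd*, *Retn* and *Lpl* and overlapped for *Lep*, *Rbp4* and *Saa3*. For *Retn* they were barely apart, at most 91.5 below and at least 92.5 above. How many of all genes had ranges apart was not counted. The mean of the muscle list was also higher above the median, at 6193 against 3187 CPM. So were those of the macrophage (268 against 199), endothelium (161 against 133) and fibroblast (7307 against 6139) lists, while the bulb list was level (980 against 982). The part of these lists was not tested.

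Across 32 sums (8 spot classes, the unassigned spots among them, in 4 slices) the genes closest to each member were ranked by Pearson's correlation of log2(CPM + 1) over 10572 genes. These sums share slices and depth, so the values are a description. *Adipoq* was closest to *Cfd* (r = 0.95), *Hp* (0.91) and *Pck1* (0.90), and *Cfd* to *Hp* (0.97). *Rbp4* was closest to *Adipoq* (0.90) and *Lep* to *Cfd* (0.82). *Retn* stood a little apart, closest to the lipase gene *Pnpla2* (0.87) and to *Gpd1* (0.78). *Lpl* was closest to the fatty acid carrier *Cd36* (0.92) and to *Plin4* (0.91). *Saa3* was closest to *Dlx2* (0.92), a homeobox gene, and to the ribosomal protein genes *Rpl22l1* (0.92) and *Rpl23a* (0.90), and its correlation with the other members was between 0.13 and 0.41.

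Other genes of these pathways were described by 3 lists. Of 26 partners and receptors of the members, 17 passed the filter, 13 were called higher and 2 lower in adipose-rich than in bulb-rich spots, where 28.1% of all genes were higher and 24.5% lower (median log2 fold change 0.71, all genes -0.02). *C3* and *Cfb*, complement proteins of the pathway that *Cfd* activates, were higher by 2.78 ± 0.16 and 2.37 ± 0.18 on the log2 scale. *Apoe* and *Angptl4*, an inhibitor of lipoprotein lipase, were higher by 2.41 ± 0.08 and 2.17 ± 0.13. Adipose-rich spots were not the highest class for several of these genes: *Apoe* stood at 4162 CPM there, 19411 in fibroblast-rich and 22765 in sebaceous gland-rich spots, and *C3* at 56.1 in adipose-rich and 92.2 in fibroblast-rich spots. The lists of other cell types were also higher in adipose-rich than in bulb-rich spots, at 6711 against 1483 CPM for fibroblasts, 232 against 56.6 for macrophages and 146 against 54.3 for endothelium. Their part in the counts of this list and the following ones was not tested. *Stra6*, the receptor for retinol-binding protein, was among those called lower (24.3 ± 3.9 CPM in adipose-rich and 74.3 ± 19.1 in bulb-rich spots). Receptors for adiponectin were present in every class: *Adipor1* stood at 119 and *Adipor2* at 87.2 CPM in adipose-rich spots and at 98.5 and 54.8 in bulb-rich spots. The leptin receptor *Lepr* was under 4 CPM in these classes and did not pass the filter. Against muscle-rich spots, where 15% of all genes were higher and 16.7% lower, 7 of the 17 were higher and 3 lower, with a median of 0.10. *Gpihbp1*, which anchors lipoprotein lipase to capillaries, was 1.77 ± 0.16 above bulb-rich spots and -0.39 ± 0.12 against muscle-rich spots on the log2 scale.

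Of 21 other secreted factors known from adipose tissue, 16 passed the filter, and 14 were called higher and 0 lower in adipose-rich than in bulb-rich spots (median 1.83, with 28.1% of all genes higher). The haptoglobin gene *Hp* led with 3.08 ± 0.08, followed by *Igf1* (2.66 ± 0.14), *Cxcl12* (2.57 ± 0.10) and the angiotensinogen gene *Agt* (2.51 ± 0.30). *Igf1* stood at 64.1 CPM in adipose-rich and 106 in fibroblast-rich spots, and *Cxcl12* at 184 and 194. *Cxcl12* was highest in outer root sheath-rich spots, at 336 CPM. Against muscle-rich spots the same list gave 2 of 16 higher, near the 15% of all genes, and 7 lower, where 16.7% of all genes were, with a median of -0.26. *Hp* (2.79 ± 0.08) and *Cxcl12* (0.97 ± 0.09) were those higher. Of 22 adipocyte enzymes and regulators, all passed the filter, and 18 were higher and 1 lower than in bulb-rich spots (median 1.57, with 28.1% of all genes higher), led by *Pck1* (3.81 ± 0.21), *Gpd1* (3.19 ± 0.13), *G0s2* (3.03 ± 0.17) and *Sncg* (2.74 ± 0.22). Against muscle-rich spots 15 were higher and 2 lower (median 0.50, with 15% of all genes higher). Those lower were *Slc2a4*, the insulin-responsive glucose transporter, at -2.27 ± 0.12, and *Car3* at -1.53 ± 0.06.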

How the data were processed

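The authors deposited, per slice, UMI counts for every spot and gene, made with Space Ranger 2.0.1 (per the file headers) on mm10 (per the submitters' processing notes). These counts were not normalized. Spots with fewer than 250 detected genes (9 of 6420) were left out. Each marker list was scored per spot as the mean of log1p(UMIs per 10000) and set against all spots of the slice. The score threshold of 1.5 was set on the markers after their scores, class sizes and a map had been seen. *Krt85* and *Fads2b* had no match in the files. The members and lists were chosen with earlier results of these data known. No doublet caller was run, since spots hold several cells.

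UMIs were summed per slice and class (at least 10 spots) and fitted with edgeR 4.0.16 in R 4.3.3 (TMM, filterByExpr, quasi-likelihood test, slice as a block, Benjamini-Hochberg adjustment over all fitted genes, threshold 0.05). Comparisons of classes or steps share sums. The slice block was used because all classes of a slice come from the same sections; the sums of a slice deviated together, with mean correlations of 0.25, 0.14, 0.0996 and 0.15 in slices 1 to 4. DESeq2 1.42.0, no filter, library size alone, no block, each slice left out, other score thresholds and parts of the adipose list were alternatives. Those for bulb-rich against muscle-rich spots and for muscle-rich spots near fat, the *Retn* difference, the splits of bulb-rich spots and steps from other classes were added after the values had been seen. In simulated data for adipose-rich against bulb-rich spots (11399 genes fitted, 200 changed by 1 on the log2 scale before the filter), 86.2% of the changed genes that were fitted were recovered. Of the calls, 2.89% were false. The simulation held no slice effect and few changed genes, whereas the real comparison called 28.1% of genes higher and 24.5% lower. These rates therefore need not hold for the real data. Pairs of slices shared between 963 and 1403 spot barcodes, which mark array positions. Named list genes were the 4 with the largest change against bulb-rich spots among those called, and counterparts of members. One gene of these lists is not reported here. The limit for a count of 0 (3 counts) covers counting error only. Python 3.11.15 with NumPy 2.4.6, SciPy 1.17.1 and pandas 2.3.3 was used for sums.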

Additional observations from a re-analysis of the deposited data

Results flagged for a closer look

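Of 49 sets of 4 slices looked at, 2 held a slice far from the others, and chance alone does so in about 1 in 20 such sets. *Adipoq* in adipose-rich spots was 234 CPM in slice 4, against 165, 170.4 and 171 in the others. *Lpl* in bulb-rich spots was 108 CPM in slice 4, against 60.6, 63.9 and 64.3 in the others.

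The change of *Retn* near fat differed between muscle-rich and bulb-rich spots by a log2 value of 1.70 (edgeR, adjusted p = 0.040), in a test chosen after the values had been seen. The call was lost with DESeq2, without the slice block, with a stricter score threshold and with either part of the adipose list. It was lost too without slice 2 and without slice 4.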

How the results depend on the processing

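The 6 members called higher in adipose-rich than in bulb-rich and in muscle-rich spots were called in every alternative that gave them a value (14 or 15 each), as was *Saa3* lower than in bulb-rich spots. For muscle-rich spots near fat the count of members called was 3, and it was 1 with DESeq2, 0 with no replicate block, 0 with the second part of the adipose list and 1 to 4 with a slice left out. For bulb-rich spots near fat it was 0, and 1 with the second part of the list (*Saa3*). Without the replicate block *Saa3* at step 0 against 4 or more steps was 0.66 (adjusted p = 0.065 by edgeR).

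Log2 changes that turned sign were not called in either direction. In bulb-rich spots near fat these were *Adipoq* (second part of the list 0.11), *Cfd* (DESeq2 0.00, looser threshold 0.19, first part of the list 0.0975, second part 0.0456, adjoining as 1 step 0.15, a slice left out -0.24 to 0.14), *Saa3* (stricter -0.074, looser -0.33, a slice left out -0.0030 to 1.07) and *Lpl* (stricter 0.0586, looser 0.11, first part 0.0047, second part 0.17, 1 step 0.16, a slice left out -0.22 to 0.15). The others were *Saa3* in muscle-rich spots near fat (stricter -0.55, second part -0.40) and *Saa3* at step 0 against step 2 (looser 0.0701, first part 0.14, a slice left out -0.31 to 0.0074). The cause was not tested. Seurat clusters as regions gave no value, since no cluster was led by adipose markers. *Lep* and *Rbp4* were too sparse to be tested near fat.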
